A study of Mus musculus with 48 samples.

Results

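De novo lipogenesis, the making of fatty acids from acetyl-CoA, was followed through 10 genes out of the 29221 in the joined count matrix. The genes were taken by symbol from a list of pathway enzymes and regulators, and all 10 passed the filter on low counts in every comparison. They are the enzyme genes Acly, Acaca, Acacb, Fasn, Me1 and Pklr, the citrate carrier gene Slc25a1, the enzyme-modulator gene Thrsp, and the transcription factor genes Srebf1 and Mlxipl. RNA from the whole livers of 48 floxed Pparg mice was sequenced, 1 library per liver. Adult mice of both sexes ate a high fat (HF) diet for 34 weeks, or the HF diet for 18 weeks and then 16 weeks of a diet with added cholesterol and fructose (HFCF). Further females ate a low fat (LF) diet for 34 weeks, and no LF males were analysed here. After 16 weeks each mouse received AAV8-TBG-Cre, a virus whose hepatocyte promoter TBG drives Cre recombinase, or AAV8-TBG-null without Cre (the controls). All mice carried the floxed allele and all received virus. The 4 male groups held 6 livers each and the 6 female groups 4 each.

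In a fed liver, citrate leaves the mitochondrion, is cleaved to cytosolic acetyl-CoA, carboxylated to malonyl-CoA and built into palmitate with reducing power from NADPH. Insulin acts on this pathway largely through SREBP-1c, a product of Srebf1, and carbohydrate through ChREBP, the product of Mlxipl. Both factors are made as proteins that need further steps before they act (cleavage of SREBP-1c, nuclear entry of ChREBP), so their mRNA is not a measure of their activity.

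The promoters of 4 of the genes are shown as examples that hold matches to the motifs named below. The windows of Acaca and of the nearest start of Pklr held none. Any bearing of the matches on how the members moved was not tested. RefSeq (GRCm38.p6) lists 15 start sites for the 10 genes, all of which matched by symbol. Capitals mark matches, on either strand, to the NF-Y box CCAAT, the GC box GGGCGG, the E-box CACGTG or the carbohydrate response element consensus. Each run holds the 250 bases before a start site, read in the direction of the gene. Fasn is at chr11:120824548-120824797 (minus strand), Slc25a1 at chr16:17928220-17928469 (minus strand), Mlxipl at chr5:135089640-135089889 (plus strand), and the second start of Pklr at chr3:89136373-89136622 (plus strand).
Fasn: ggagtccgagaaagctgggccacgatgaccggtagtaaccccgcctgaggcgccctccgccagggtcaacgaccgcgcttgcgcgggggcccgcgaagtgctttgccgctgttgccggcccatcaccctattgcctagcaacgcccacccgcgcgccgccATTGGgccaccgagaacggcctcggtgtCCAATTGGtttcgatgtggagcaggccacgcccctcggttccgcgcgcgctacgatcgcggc
Slc25a1: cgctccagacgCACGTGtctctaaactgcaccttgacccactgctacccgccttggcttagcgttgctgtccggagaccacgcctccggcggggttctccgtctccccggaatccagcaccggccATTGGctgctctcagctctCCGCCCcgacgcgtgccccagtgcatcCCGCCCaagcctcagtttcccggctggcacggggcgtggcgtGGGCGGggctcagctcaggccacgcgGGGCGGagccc
Mlxipl: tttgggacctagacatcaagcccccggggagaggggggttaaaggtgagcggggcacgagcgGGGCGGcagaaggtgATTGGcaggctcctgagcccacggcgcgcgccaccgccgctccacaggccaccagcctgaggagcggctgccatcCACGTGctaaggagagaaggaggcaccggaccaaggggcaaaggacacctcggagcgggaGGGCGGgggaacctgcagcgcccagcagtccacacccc
Pklr: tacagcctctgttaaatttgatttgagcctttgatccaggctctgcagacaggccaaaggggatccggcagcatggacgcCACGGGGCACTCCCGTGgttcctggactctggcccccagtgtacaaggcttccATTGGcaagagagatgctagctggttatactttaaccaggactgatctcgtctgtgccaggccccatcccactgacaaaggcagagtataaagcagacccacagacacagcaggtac

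The Fasn run holds 3 NF-Y boxes, 2 of which overlap and read into each other on opposite strands. Slc25a1 and Mlxipl each hold 1 E-box, and the second start of Pklr holds the carbohydrate response element, beginning 170 bases before the start. Over the 300-base windows that also take 50 bases after the start, the NF-Y box was present at the start nearest the deposited gene end in 7 of the 10 genes, against 37.4% of 32851 promoters. That nearest start lay 65766 bases from the deposited gene end for Acaca and 18983 bases from it for Acacb. The GC box was present in 4 of 10 (35.7% of promoters), and the E-box in 2 of 10 (7.15%). The carbohydrate response element was found at 0 nearest starts and at 1 other start of the 15 searched, in Pklr, against 0.119% of promoters. The letters TCACNCCAC, an SRE-like motif bound by SREBP, were found at 0 nearest starts and at 1 other start, in Mlxipl, against 1.24% of promoters. These matches describe letters in a window and not binding.

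Libraries held 15338239 to 22072884 reads on genes. Hepatocyte markers (Alb, Apoa1, Ttr, Tat and Cps1) summed to between 36866 and 116574 CPM (counts scaled to library size with edgeR's trimmed-mean factors) in the 48 livers. Of the 4 adipocyte markers in the table, Adipoq was at 0 in 44 libraries, Plin1 in 46 and Retn in 40, while Cfd was at 0 in 19 and reached 19.9 CPM in the highest. Pparg was not lower in any group labelled knockout. The labelled knockouts and controls measured 41.1 ± 14.0 and 34.2 ± 3.94 CPM (SD, n = 6 each) in HF males, and 56.3 ± 6.18 and 32.3 ± 5.47 in HFCF males. In females (n = 4 each) they measured 15.4 ± 5.40 and 10.4 ± 3.31 on LF, 28.6 ± 7.85 and 18.7 ± 4.14 on HF, and 45.8 ± 9.37 and 23.7 ± 1.46 on HFCF. Pparg was called higher by edgeR's quasi-likelihood test in HFCF males (adjusted p = 0.000805) and HFCF females (adjusted p = 0.0422). A gene count includes exons outside any deleted stretch, which exons were floxed is not given in the sources used here, and the groups are called labelled knockout throughout.

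All 10 genes were well expressed in every liver. Levels between genes are compared here on the deposited FPKM scale, which divides by gene length. The highest median over the 48 livers was that of Pklr, liver pyruvate kinase, at 128 FPKM, followed by Thrsp and Slc25a1 at 114 each. Fasn, fatty acid synthase, had a median of 95.7 FPKM and Srebf1 one of 93.9 FPKM. Mlxipl (69.4), Me1 (64.9) and Acly (64.7) lay close together. The acetyl-CoA carboxylases were the lowest, with Acacb at 22.9 FPKM and Acaca at 11.97 FPKM. Slc25a1 varied least between single livers, with the highest library 2.05 times the lowest in CPM, followed by Mlxipl at 2.84 times. Acly varied most, at 7.53 times, and Me1, Thrsp and Fasn spanned 6.87, 6.87 and 6.68 times. In 5 of the 10 genes (Fasn, Acaca, Acacb, Acly and Thrsp) the highest of all 48 livers was labelled-knockout replicate 6 of the HFCF males.

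**Figure D1:**
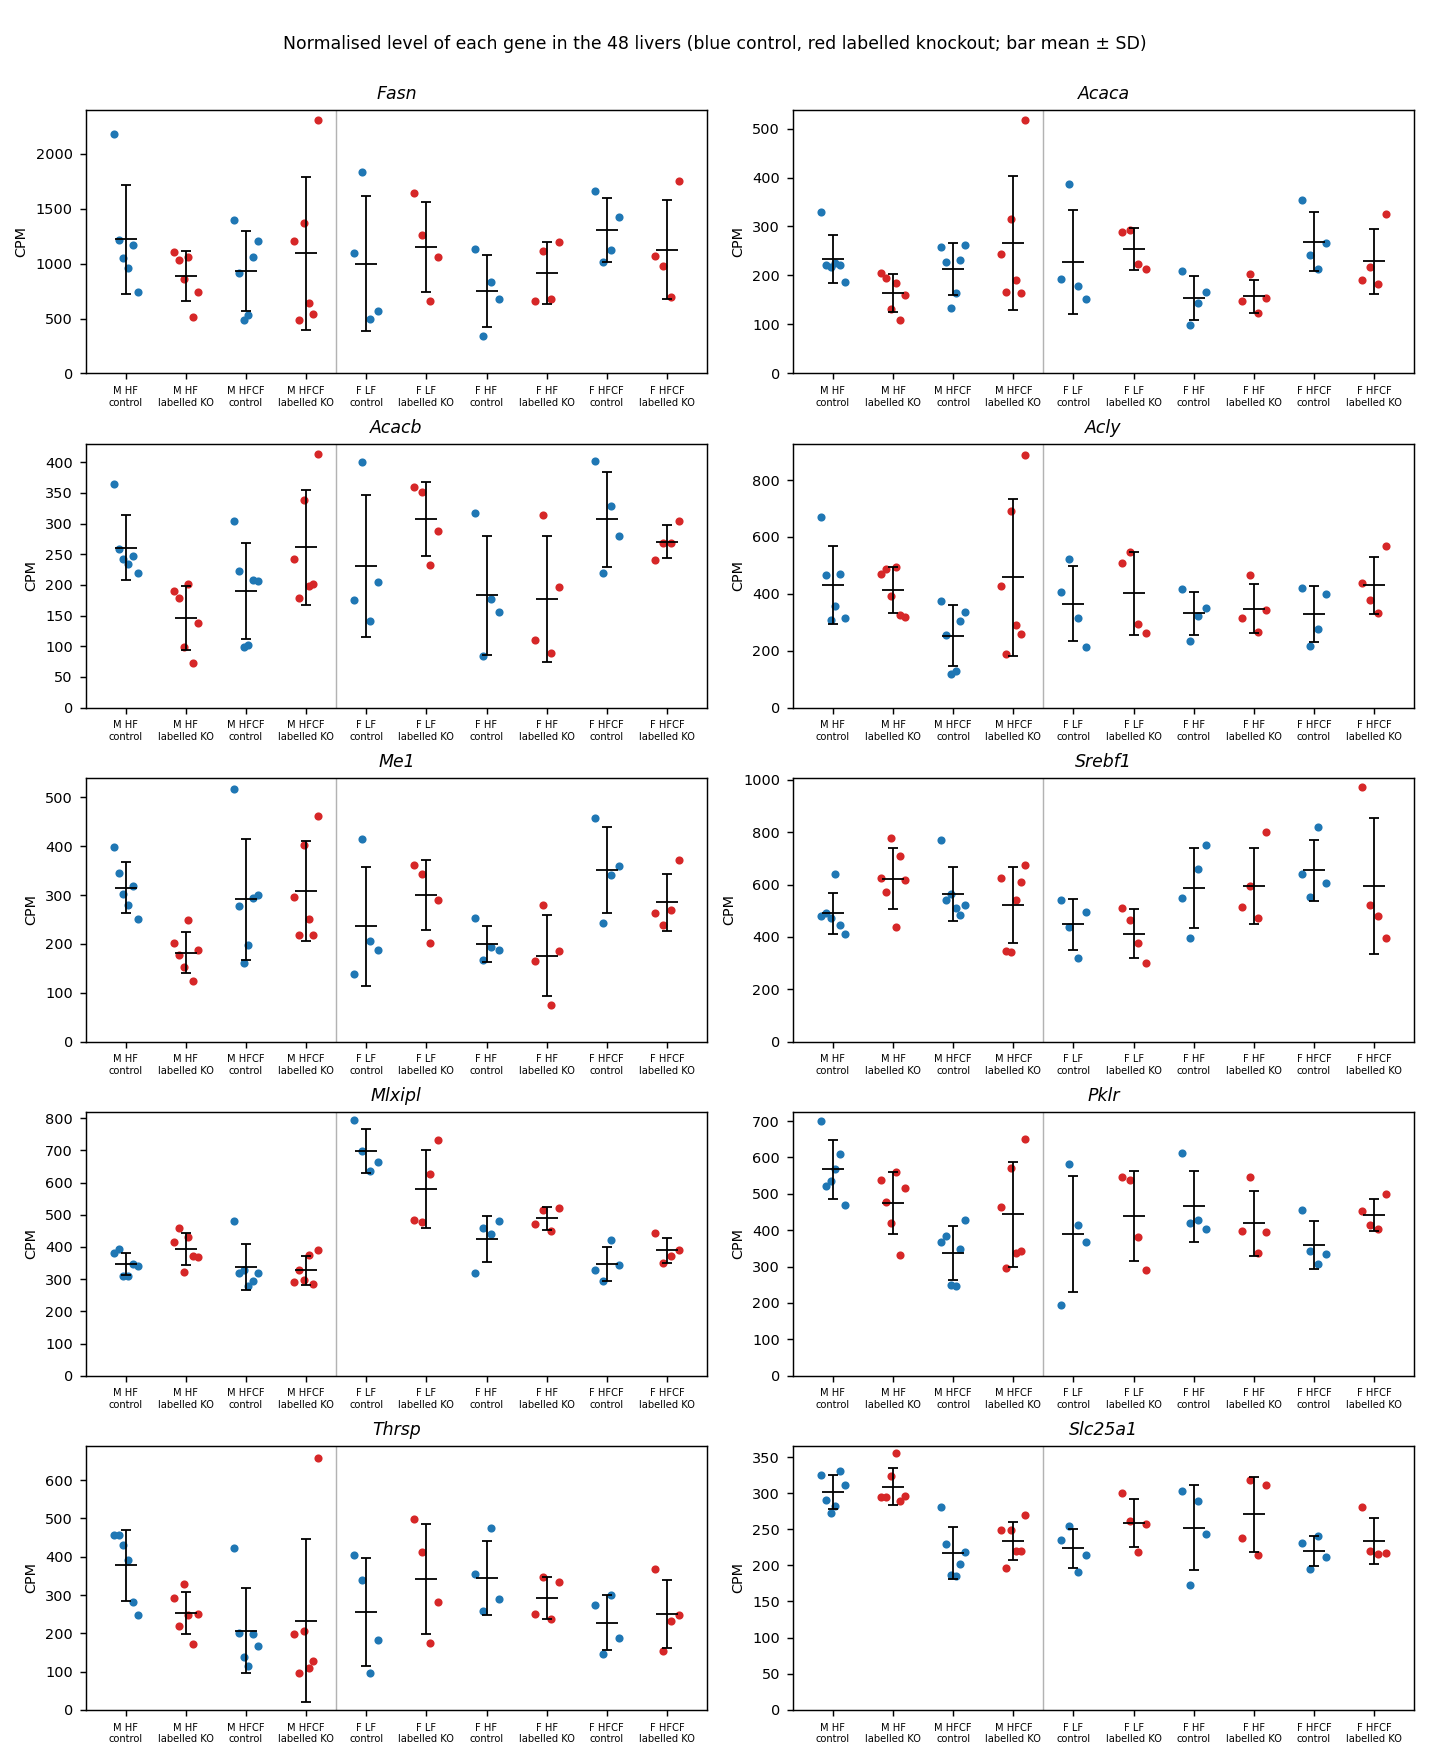
CPM of each gene in the 48 livers, 1 point per liver, by sex (M, F), diet and genotype. Bars give the group mean ± SD (n = 6 in male groups, 4 in female groups). Mlxipl was highest in low fat females (698 ± 68.7 CPM in controls), while the groups overlapped widely for Fasn.

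When the 10 group means of a gene were put in order, neighbouring groups overlapped in all 9 places for every one of the 10 genes. For Fasn the order ran from 748 ± 327 CPM in HF control females (SD, n = 4) to 1308 ± 292 CPM in HFCF control females (n = 4). The gap between neighbours was larger than the larger of their SDs in 1 place for Mlxipl and 1 place for Pklr, and in none for the other 8 genes. For Pklr the gap set off the HF control males, the highest group at 567 ± 80.2 CPM (n = 6). For Mlxipl it set off the lower 4 groups from the rest.

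The effect of the labelled knockout was asked first. In HF males 4 of the 10 genes fell: Me1, Acacb, Thrsp and Acaca, while Fasn, Acly, Pklr, Slc25a1 and the transcription factor genes did not pass the test. In this comparison 18.5% of all tested genes were called (9.88% as lower), which is the background for the 4. The median log2 fold change of the 10 genes was -0.37, against 0.00 over all genes tested. Me1, the cytosolic malic enzyme that makes NADPH, ranged from 250.1 to 398 CPM (median 309.6) in the 6 controls and from 124 to 248 CPM (median 183) in the 6 labelled knockouts. The highest labelled knockout thus lay below the lowest control, and the log2 fold change was -0.80 (SE 0.14, edgeR quasi-likelihood adjusted p = 0.00114). Acacb, the carboxylase at the mitochondrial surface whose malonyl-CoA restrains fatty acid entry, ranged from 219 to 364 CPM (median 245) in controls and from 72.4 to 202 CPM (median 158) in labelled knockouts. These groups did not overlap either, with a log2 fold change of -0.84 (SE 0.21, edgeR adjusted p = 0.0111). The calls of Me1 and Acacb held without each of the 12 libraries in turn.

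Thrsp, which encodes the lipogenic Spot 14 protein, ranged from 247 to 458 CPM (median 411) in controls and from 172 to 329 CPM (median 249) in labelled knockouts, with overlap at the lower controls. It fell by 0.59 on the log2 scale (SE 0.17, edgeR adjusted p = 0.0210), and the adjusted p rose to 0.0521 without control replicate 1 and to 0.0501 without control replicate 3. Acaca, the cytosolic carboxylase that commits acetyl-CoA to fatty acids, ranged from 187 to 329 CPM (median 221) in controls and from 109 to 205 CPM (median 173) in labelled knockouts. Only the lowest control lay within the range of the labelled knockouts, and the log2 fold change was -0.51 (SE 0.15, edgeR adjusted p = 0.0289). This call was lost without control replicate 1 (adjusted p = 0.0707) and without labelled-knockout replicates 3 (0.0669) or 5 (0.0584). With all 10 groups in 1 fit, which shares the spread of the other groups, Me1 alone was called, and the adjusted p of Acacb, Acaca and Thrsp became 0.0652, 0.168 and 0.309. Without control replicate 1 the count of called members was 2. No share of all genes is given for that refit or for the fit with all 10 groups.

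The other 6 genes did not pass in HF males. Fasn ranged from 742 to 2178 CPM (median 1114) in controls and from 509.9 to 1106 CPM (median 950.1) in labelled knockouts, a log2 difference of -0.47 (95% interval -0.91 to -0.02, edgeR adjusted p = 0.168). Srebf1 had the largest positive value, 0.34 (SE 0.12, edgeR adjusted p = 0.0692). Pklr measured -0.26, Acly -0.06, Slc25a1 0.03 and Mlxipl 0.18 on the log2 scale. Pklr and Srebf1 overlap genes on the opposite strand, Hcn3 and Rai1, whose counts averaged 7.28% and 5.48% of theirs, and in libraries without strand information such reads cannot be told apart.

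The other pathway lists in HF males are set against the 18.5% of all genes called (9.88% lower), and several had few calls or calls in both directions. In the list of desaturation, elongation and esterification genes, 7 of 10 were called lower and 0 higher. Among them were the desaturase genes Scd2 (log2 -0.80, SE 0.12) and Scd1 (-0.76, SE 0.18), the glycerol-3-phosphate acyltransferase gene Gpam (-0.67, SE 0.08) and the elongase gene Elovl6 (-0.59, SE 0.15). In the list for acetyl-CoA and citrate supply 5 of 11 fell, including pyruvate carboxylase Pcx (-0.59) and the pyruvate dehydrogenase subunit Pdha1 (-0.52), and 1 rose (Mpc2, 0.26). Of 9 ChREBP partners and glucose-responsive genes, Txnip (-0.88) and Gpd1 (-0.60) fell and 0 rose. Of 7 SREBP-processing genes only Insig2 fell (-0.64), and of 4 LXR and RXR genes Nr1h3 (0.26) and Rxra (0.28) rose. The NADPH list had 2 lower and 1 higher of 8, and the list on regulation of acetyl-CoA carboxylase had 2 lower (Trib3 -0.68, Cpt1a -0.35) and 2 higher (Mid1ip1 0.43, Stk11 0.23) of 10. These calls are edgeR adjusted p-values under 0.05 over all genes.

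Some cell-type markers moved in the same comparison, where 18.5% of all tested genes were called (9.88% lower), and 0 endothelial, cholangiocyte or lymphocyte markers were called. All 5 hepatocyte markers were called higher, and their sum ranged from 58644 to 81902 CPM in HF control males and from 85736 to 100495 CPM in labelled knockouts. Of 5 stellate-cell markers 3 were called lower (Dcn, Col1a1 and Col3a1), while Lrat and Des were not called. The sum of the 5 ranged from 403 to 587 CPM in controls and from 264 to 363 CPM in labelled knockouts. Of the macrophage markers Clec4f was called higher and Trem2 lower, and 2 of 3 erythroid markers were called higher. Of the 4 adipocyte markers in the table only Cfd passed the filter on low counts and was tested, and it was called lower. The sum of the 4 ranged from 1.64 to 8.18 CPM in controls and from 0 to 0.0675 CPM in labelled knockouts. The part of these shifts in the lipogenic changes was not tested, and in whole liver fewer cells of a type and less RNA per cell cannot be told apart.

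In the other settings the labelled knockout changed 0 of the 10 genes by edgeR's test. In HFCF males 2.21% of all genes were called. An unadjusted p under 0.05 was met by 2085 of 14685 genes and by 1 member, Acly, the ATP citrate lyase gene. Acly ranged from 118 to 374 CPM (median 279) in those controls and from 189 to 889 CPM (median 359) in labelled knockouts, a log2 difference of 0.86 (95% interval 0.12 to 1.61, edgeR adjusted p = 0.312). In LF females and in HF females 0% of all genes were called. There 0 members had an unadjusted p under 0.05, against 355 of 14285 and 1135 of 14128 genes. In HFCF females 0.0534% of genes were called. There 1 member, Pklr, had an unadjusted p under 0.05 (log2 0.33, 95% interval 0.04 to 0.61), as did 1340 of 14980 genes. The DESeq2 Wald test called 0 members in each of these 4 comparisons. No share of all genes is given for the Wald test here or in later paragraphs. Averaged over the 5 settings of sex and diet, 11.8% of genes and 0 members were called, by the DESeq2 Wald test also 0. There the log2 differences ran from -0.19 in Me1 (95% interval -0.46 to 0.07) to 0.30 in Acly (95% interval 0.01 to 0.60). Acly was the 1 member with an unadjusted p under 0.05, against 4209 of 16236 genes.

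**Figure D2:**
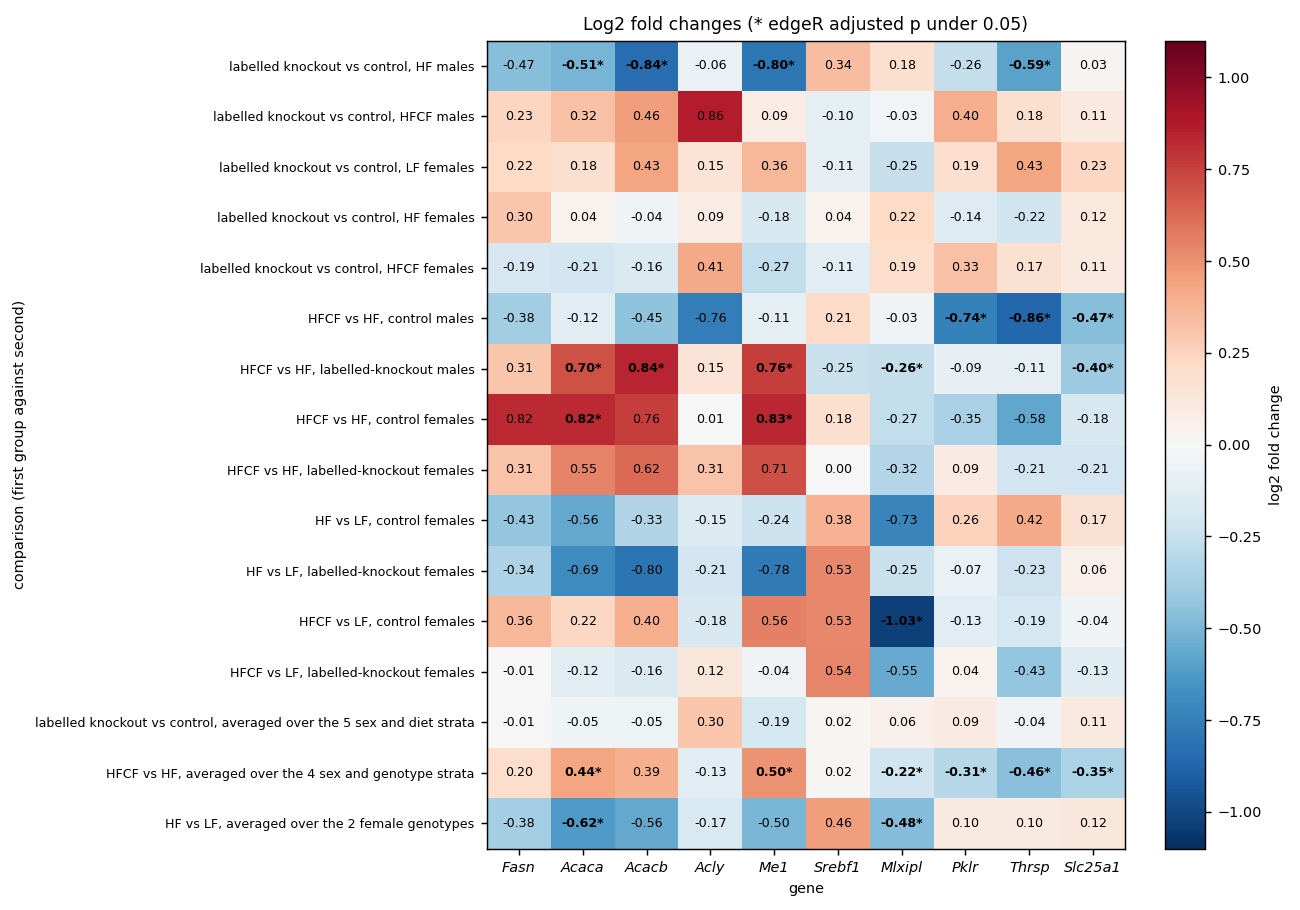
Log2 fold changes of the 10 genes (columns) in the 13 pairwise and 3 averaged comparisons (rows), from edgeR, blue where lower and red where higher in the first group named. Bold values with a star have an adjusted p under 0.05, as for Mlxipl at -1.03 in HFCF against LF control females.

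Whether the labelled-knockout effect depended on the diet or the sex was tested directly. For males the effect on HFCF minus that on HF was 1.28 for Acacb on the log2 scale (SE 0.37, edgeR adjusted p = 0.0703), 0.87 for Me1 (adjusted p = 0.144) and 0.82 for Acaca (adjusted p = 0.194). None of the 10 passed, against 1.56% of all genes. An unadjusted p under 0.05 was met by 4 of the 10 and by 2574 of 15096 genes. The DESeq2 Wald test called 1 member, with no share of all genes given for that test. Without control replicate 1 of the HFCF males edgeR called 2, with no share of all genes given for that refit. The other 4 tests of this kind (diet within females, and sex on each diet) called 0 members and 0% of all genes. By the DESeq2 Wald test they also called 0 members. In 1 of the 4 (HF minus LF in females) 1 member had an unadjusted p under 0.05, against 554 of 14938 genes. In the rest 0 members did, against 667 of 15445 genes (HFCF minus HF in females), 1590 of 15024 (sex on HF) and 1515 of 15673 (sex on HFCF). The largest difference between sexes on HF was -0.79 for Acacb (95% interval -1.74 to 0.16).

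Next came the comparison of the HFCF with the HF diet. Averaged over the 4 combinations of sex and genotype, Me1 and Acaca rose while Slc25a1, Mlxipl, Pklr and Thrsp fell. Fasn, Acly, Acacb and Srebf1 did not pass. In this comparison 58.7% of all tested genes were called (29.2% higher and 29.5% lower), so 6 of 10 is near the background share. What the comparison shows is the average direction of each gene, which not every stratum shared. The log2 fold changes were 0.50 for Me1 (SE 0.14, edgeR adjusted p = 0.00287) and 0.44 for Acaca (SE 0.14, adjusted p = 0.00545). Thrsp fell by 0.46 (SE 0.18, edgeR adjusted p = 0.0284), Slc25a1 by 0.35 (SE 0.06, adjusted p = 1.04e-05), Pklr by 0.31 (SE 0.10, adjusted p = 0.00840) and Mlxipl by 0.22 (SE 0.06, adjusted p = 0.00327). All 6 calls held without each of the 40 libraries in turn. In control males mean Acaca was 213 CPM on HFCF and 234 on HF, and mean Me1 291 and 315 CPM. Mean Pklr was 443 CPM on HFCF and 419 on HF in labelled-knockout females. Acacb measured 0.39 (adjusted p = 0.0612), Fasn 0.20 (95% interval -0.17 to 0.56), Acly -0.13 (95% interval -0.46 to 0.20) and Srebf1 0.02 (95% interval -0.19 to 0.22).

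**Figure D3:**
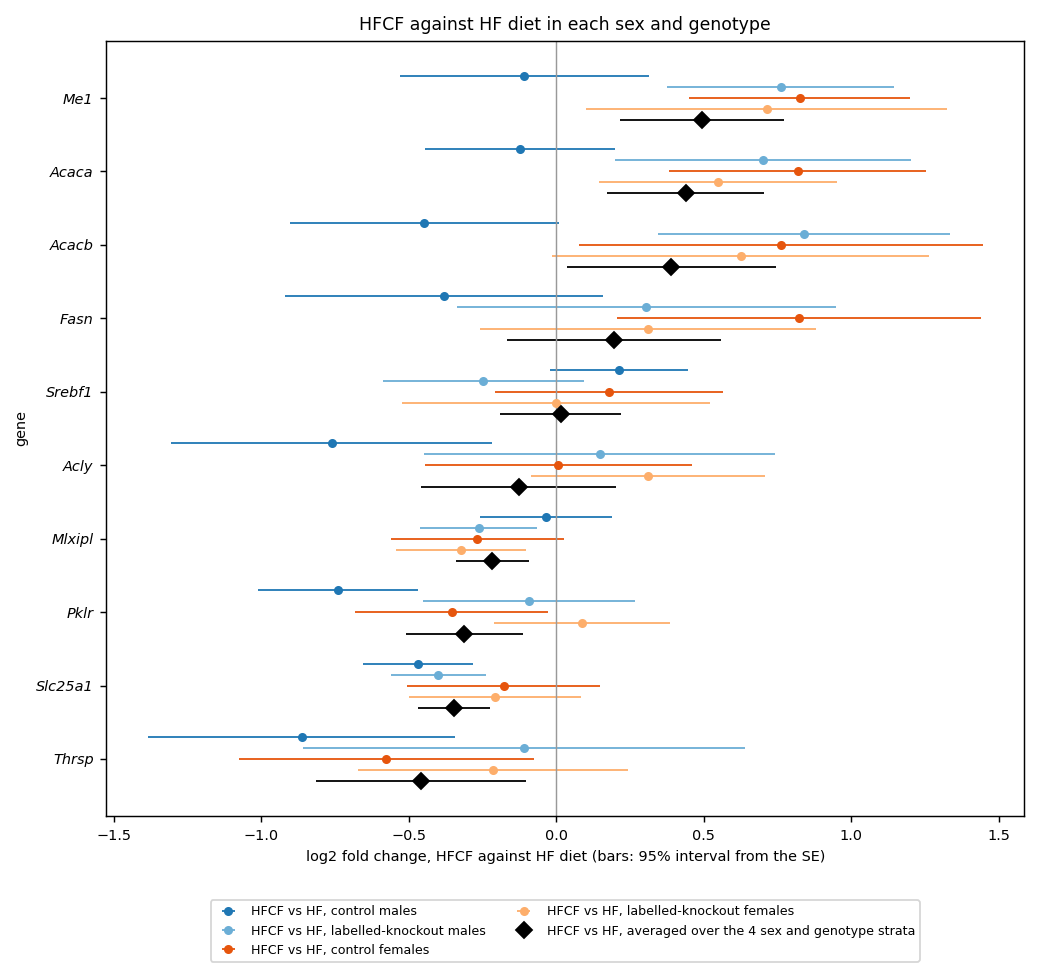
Log2 fold change of each gene on HFCF against HF diet in 4 strata (colours) and averaged over them (black diamonds), with bars giving 95% intervals from the SE. Slc25a1 lay below 0 in all 4 strata, while Me1 was -0.11 in control males and 0.71 to 0.83 in the other strata.

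In control males Pklr, Slc25a1 and Thrsp fell on HFCF. Pklr ranged from 469 to 699.9 CPM (median 552) on HF and from 247 to 428 CPM (median 358) on HFCF. The groups did not overlap, with a log2 fold change of -0.74 (SE 0.14, edgeR adjusted p = 0.00263). Slc25a1, which carries citrate out of the mitochondrion, ranged from 273 to 331 CPM (median 301) on HF and from 186 to 281 CPM (median 209.9) on HFCF. The highest HFCF liver lay within the HF range, and the log2 fold change was -0.47 (SE 0.10, edgeR adjusted p = 0.00381). Thrsp ranged from 247 to 458 CPM (median 411) on HF and from 113 to 423 CPM (median 182) on HFCF, where 5 of the 6 livers lay at 201 CPM or below. Its log2 fold change was -0.86 (SE 0.27, edgeR adjusted p = 0.0310). The Thrsp call was kept only without HF replicate 5 or 6 or HFCF replicate 1, and without any 1 of the others the adjusted p was above the threshold, at most 0.0710. In all 3 of 10 members were called lower against 9.31% of all genes, 0 members were called higher, and 22.3% of genes were called either way. Without HFCF replicate 1, the highest liver of its group for every member but Acaca and Pklr, 5 members were called. That 5 has no background beside it, as the share of all genes called in the refit is not given here.

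In labelled-knockout males 3 members rose and 2 fell on HFCF, where 41.7% of all genes were called (21.6% higher and 20% lower). Me1 ranged from 124 to 248 CPM (median 183) on HF and from 218 to 461 CPM (median 274) on HFCF, a log2 fold change of 0.76 (SE 0.20, edgeR adjusted p = 0.00595). Acacb ranged from 72.4 to 202 CPM (median 158) on HF and from 179 to 413 CPM (median 221) on HFCF, with a log2 fold change of 0.84 (SE 0.25, edgeR adjusted p = 0.0146). Both overlapped between diets. For Me1 the HFCF livers at 217.8 and 218.3 CPM lay within the HF range, and for Acacb those at 179, 198 and 201 CPM. Acaca rose by 0.70 (SE 0.26, edgeR adjusted p = 0.0383), a call lost without HF replicates 3, 5 or 6 or HFCF replicates 1, 3 or 6, and by the DESeq2 Wald test (adjusted p = 0.0511). The value fell to 0.42 without HFCF replicate 6 (adjusted p = 0.0850). Slc25a1 ranged from 289 to 356 CPM (median 296) on HF and from 196 to 269 CPM (median 234) on HFCF. These groups did not overlap, and the log2 fold change was -0.40 (SE 0.08, edgeR adjusted p = 0.00120). Mlxipl fell by 0.26 (SE 0.10, edgeR adjusted p = 0.0480), a call kept only without HF replicate 3 or 6 or HFCF replicate 4 or 6 and otherwise reaching an adjusted p of 0.107. These comparisons share the HF labelled-knockout livers with the labelled-knockout comparison on HF, so the lower Me1, Acacb and Acaca there and the higher values here use the same 6 livers.

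In control females Acaca and Me1 rose on HFCF, 2 of 10 against 16.9% of all genes called higher and 30.8% called either way. Acaca measured 208, 99.8, 144 and 166 CPM in the 4 HF livers and 355, 243, 214 and 266 CPM in the 4 HFCF livers. Every HFCF liver lay above every HF liver, and the log2 fold change was 0.82 (SE 0.22, edgeR adjusted p = 0.0234). Me1 measured 252, 168, 194 and 187 CPM on HF and 459, 243, 341 and 359 CPM on HFCF. The lowest HFCF liver lay below the highest HF liver, and the log2 fold change was 0.83 (SE 0.19, edgeR adjusted p = 0.0137). Fasn had a log2 difference of similar size, 0.82 (SE 0.31, edgeR adjusted p = 0.0719), which did not pass. The Acaca call was lost without HF replicates 3 (adjusted p = 0.0652) or 4 (0.0504) or HFCF replicates 1 (0.0677) or 5 (0.0537), while Me1 was called without each of the 8 libraries. Without HF replicate 1, the highest liver of its group for every member but Srebf1, Mlxipl and Thrsp, 5 members were called. The share of all genes called in that refit is not given here, so this 5 has no background beside it. In labelled-knockout females 0 of 10 were called against 14.5% of genes. An unadjusted p under 0.05 was met by 3 of 10 and by 4419 of 14650 genes. The DESeq2 Wald test called 1, with no share of all genes given. The log2 differences of Acaca and Me1 there were 0.55 (95% interval 0.14 to 0.95) and 0.71 (95% interval 0.10 to 1.32). Mlxipl did not overlap between those diets, at 471, 514, 448 and 521 CPM on HF and 444, 351, 373 and 389.7 CPM on HFCF, but its adjusted p was 0.0816.

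The diet response of control males and females was compared in 1 test, male minus female. Differences of -1.20 for Fasn and -1.20 for Acacb on the log2 scale (edgeR adjusted p = 0.230 and 0.223) and of -0.93 for Acaca (adjusted p = 0.196) did not pass. In that test 0 of 10 members were called, by the DESeq2 Wald test also 0. An unadjusted p under 0.05 was met by 4 of 10 members and by 2561 of 15491 genes. Without HF replicate 1 of the control females 3 members were called, with no share of all genes given for that refit. Over all genes 0.00646% were called. In labelled knockouts the same test called 0 members against 0.013% of genes, and the DESeq2 Wald test called 0 members. An unadjusted p under 0.05 was met by 0 members and by 1829 of 15400 genes.

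The other pathway lists on HFCF, averaged over sex and genotype, are set against the 58.7% of all genes called there (29.2% higher and 29.5% lower), and several lie near that share. Of 10 desaturation, elongation and esterification genes 6 rose and 2 fell. Scd2 rose by 2.33 (SE 0.17), Scd1 by 1.87 (SE 0.22) and Pnpla3, which encodes a lipid droplet protein, by 1.03 (SE 0.29), and the acyl-CoA synthetase gene Acsl1 fell by 0.56 (SE 0.08). The NADPH list had 4 higher and 3 lower of 8, led by G6pdx (0.86, SE 0.10) and Pgd (0.56, SE 0.10) of the pentose phosphate pathway, with Idh1 lower (-0.26). The acetyl-CoA and citrate supply list had 9 lower and 1 higher of 11, led by the pyruvate carrier subunit Mpc2 (-0.50, SE 0.07). Of 10 genes on regulation of acetyl-CoA carboxylase 8 fell and 2 rose, with Mid1ip1, the partner of Thrsp, at -0.66 (SE 0.10). Among 7 SREBP-processing genes Insig1 (-0.84, SE 0.12), Srebf2 (-0.48, SE 0.06) and Scap (-0.43, SE 0.05) fell, and 2 rose, among them Insig2 (0.52, SE 0.12). Of 9 ChREBP partners and glucose-responsive genes 5 fell, led by Arrdc4 (-0.59) and the glucose transporter gene Slc2a2 (-0.49), and 1 rose (Mlxip, 0.41). Of 4 LXR and RXR genes 3 fell, including Rxra (-0.40) and Nr1h3 (-0.27).

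Cell-type markers also differed between these diets, and fewer cells of a type and less RNA per cell cannot be told apart here. The background in this averaged comparison is 58.7% of all genes called (29.2% higher and 29.5% lower). Against it, 4 of 5 hepatocyte markers were called lower, and all 6 macrophage, all 5 stellate-cell and all 4 cholangiocyte markers higher. Of the other lists 2 of 4 endothelial markers were called higher, 3 of 3 erythroid markers lower and 0 of 4 lymphocyte markers either way. Cfd, the 1 adipocyte marker tested, was called higher. The cholangiocyte sum ranged from 12.5 to 21.6 CPM in control males on HF and from 16.9 to 71.0 CPM on HFCF. In control males the hepatocyte sum ranged from 58644 to 81902 CPM on HF and from 36866 to 59522 CPM on HFCF, and the stellate sum from 403 to 587 and from 496 to 1023 CPM. In control females the macrophage sum ranged from 239 to 422 CPM on HF and from 578 to 710.5 CPM on HFCF. The part of these shifts in the changes of the members was not tested.

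Mlxipl, the ChREBP gene, was highest on the low fat diet. In control females it measured 793, 699, 636 and 663 CPM on LF, 319, 459, 441 and 479 CPM on HF, and 328, 294, 421 and 345 CPM on HFCF. Every LF liver lay above every HF and HFCF liver. HFCF against LF gave a log2 fold change of -1.03 (SE 0.14, edgeR adjusted p = 0.00088), the only member called of 10 in a comparison where 35.2% of genes were called (16.8% lower), and the call held without each of the 8 libraries. In that comparison 4 of 5 hepatocyte markers were called lower, and 4 of 6 macrophage, 4 of 5 stellate-cell and 4 of 4 cholangiocyte markers were called higher. Of 4 endothelial markers 2 were called higher and 1 lower, of 4 lymphocyte markers 1 was called lower, and their part in the fall of Mlxipl was not tested. HF against LF in the same controls gave -0.73 (SE 0.14, edgeR adjusted p = 0.0529), with 0 members and 0.696% of genes called. An unadjusted p under 0.05 was met by 1 member and by 2314 of 14216 genes. The DESeq2 Wald test called 1 member there, with no share of all genes given. In labelled knockouts Mlxipl measured 483, 479, 625 and 731 CPM on LF, 471, 514, 448 and 521 CPM on HF, and 444, 351, 373 and 389.7 CPM on HFCF. The LF and HF livers overlapped there, while every LF liver lay above every HFCF liver. The log2 differences were -0.25 for HF against LF (adjusted p = 0.505, 0 members and 0.155% of genes called) and -0.55 for HFCF against LF (edgeR adjusted p = 0.0550, 0 members and 12% of genes called). The DESeq2 Wald test called 1 member in each of these 2 comparisons, with no share of all genes given. An unadjusted p under 0.05 was met by 4 and 1 members, against 1902 of 14214 and 4016 of 14614 genes.

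Averaged over both female genotypes, HF against LF lowered 2 of 10 members, against 3.35% of genes called lower and 8.14% called either way. Mlxipl fell by 0.48 (SE 0.12, edgeR adjusted p = 0.0184), a call that held without each of the 16 libraries. Acaca fell by 0.62 (SE 0.18, edgeR adjusted p = 0.0432), but leaving out any 1 of 11 of the 16 libraries raised its adjusted p to between 0.0516 and 0.101, the highest without LF control replicate 2. The call was kept without LF control replicates 1, 3 or 4, HF control replicate 1 or HF labelled-knockout replicate 2. Srebf1 measured 0.46 (SE 0.15, edgeR adjusted p = 0.0707). Beyond the members, HF against LF lowered Pnpla3 (-1.74), Scd1 (-1.47) and Elovl6 (-1.01), 3 of 10 in their list with 0 higher, together with G6pdx (-1.35) and G6pc (-1.34). Genes called higher were Mid1ip1 (0.59), Slc16a7 (0.51), Prkaa2 (0.45), Srebf2 (0.39), Mpc1 (0.33) and Slc2a2 (0.28), and Insig2 (-0.64) and Mlycd (-0.26) were also called lower. By list this made 2 higher and 0 lower of 11 in acetyl-CoA and citrate supply, 2 higher and 1 lower of 10 in regulation of acetyl-CoA carboxylase, 1 each way of 7 in SREBP processing and 1 each way of 9 in ChREBP partners, with 0 of the 4 LXR and RXR genes called. Of the marker lists, the stellate-cell gene Des and the endothelial gene Clec4g were called lower, and 0 of the hepatocyte, macrophage, cholangiocyte, lymphocyte and erythroid markers were called. Their part in the result was not tested.

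Over the 13 pairwise comparisons, Fasn, Acly and Srebf1 were called in 0. Acaca and Me1 were each called in 3, Acacb, Mlxipl, Thrsp and Slc25a1 each in 2, and Pklr in 1.

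Between animals of 1 group, 8 of the members varied together. Each liver's log2 CPM was set against its group mean, and the deviations of each pair of members were correlated over the 48 livers. Of 45 pairs, 30 passed by Pearson's r and 30 by Spearman's rho (permutation tests with Benjamini-Hochberg adjustment over the 45 pairs). All 28 pairs among the 8 members other than Srebf1 and Mlxipl passed, with Pearson's r from 0.425 to 0.909 and permutation adjusted p of at most 0.0449 for both measures. The largest was Fasn with Acaca (r = 0.909, rho = 0.897), at the smallest p that 100000 draws can give, 1e-05. For each pair separately, the 2 livers farthest from the median of its first gene were left out, and the 28 values then ran from 0.498 to 0.887. Within males they ran from 0.626 to 0.954, and within females from 0.110 (Pklr with Thrsp) to 0.853.

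**Figure D4:**
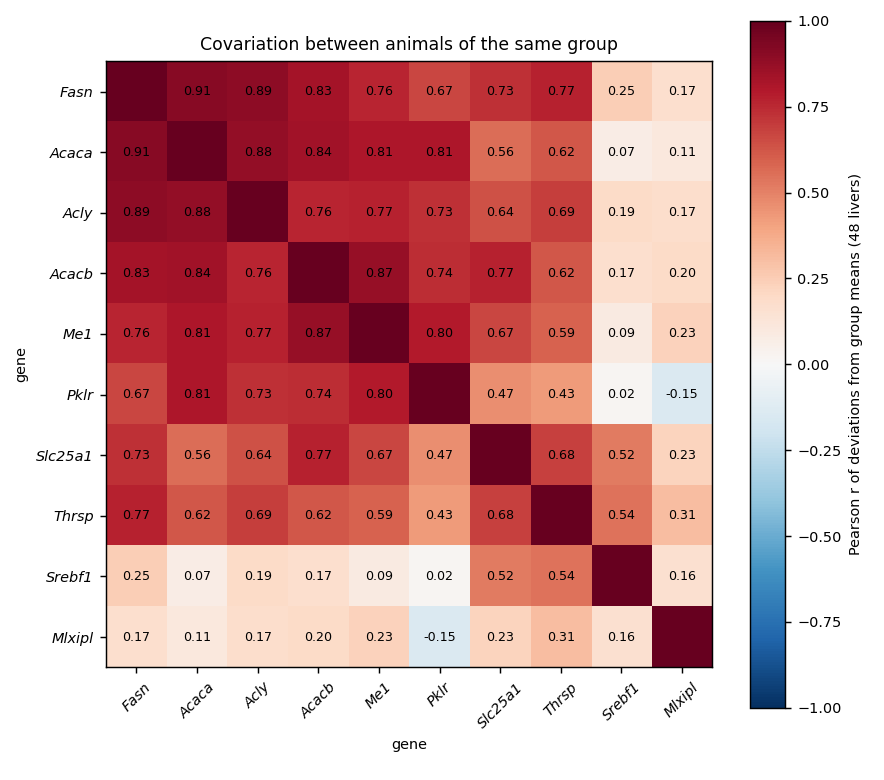
Pearson's r between the deviations of 2 genes from their group means over 48 livers, red where positive. The 8 genes other than Srebf1 and Mlxipl form a block from 0.425 to 0.909, and the rows of Srebf1 and Mlxipl are paler.

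The mRNAs of the transcription factors stood largely outside that block. Srebf1 passed with 2 members, Thrsp (r = 0.544) and Slc25a1 (r = 0.521), and its 9 values ran from 0.020 to 0.544. Mlxipl passed with 0 of 9, with values from -0.146 to 0.307. Within males the 9 values of Mlxipl ran from 0.130 to 0.581, and within females from -0.551 to 0.192. Those of Srebf1 ran from -0.024 to 0.476 within males and from 0.013 to 0.702 within females. These differences between the sexes were not tested. Fasn and Srebf1 were correlated at r = 0.248. Deviations of the 10 genes correlated with deviations in library depth at r from -0.271 to -0.00592, which is given as a description. Livers in which all 10 genes lay above their group mean were HFCF control male replicate 1, HFCF labelled-knockout male replicate 6 and HF labelled-knockout female replicate 2. All 10 lay below in 5 livers, namely HFCF control male replicate 4, HF labelled-knockout female replicate 3, HFCF control female replicate 2 and HFCF labelled-knockout female replicates 2 and 3.

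**Figure D5:**
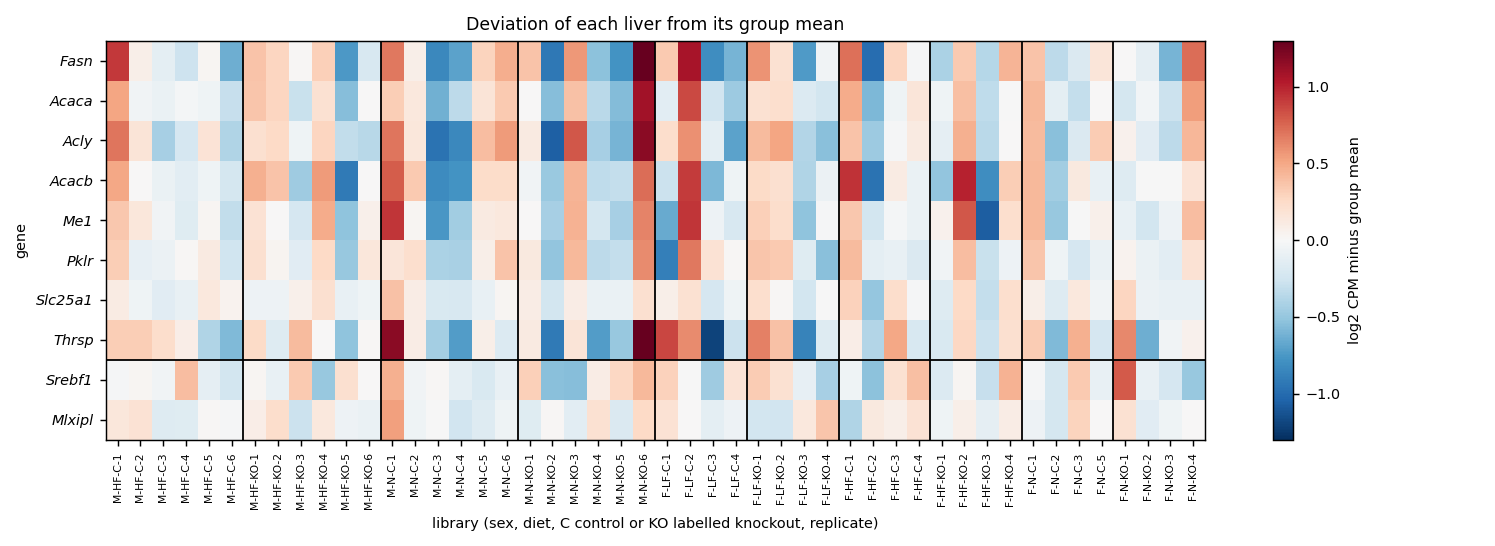
Log2 CPM of each gene minus its group mean (colour, red above and blue below) in each of 48 livers (columns, C control and KO labelled knockout, N the HFCF diet). The column of HFCF labelled-knockout male replicate 6 is red across all 10 rows. In replicate 3 of that group the upper 8 rows are red and those of Srebf1 and Mlxipl, below the line, are blue.

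The 10347 other genes averaging 5 CPM or more were searched, and those whose deviations were most like the mean of the 10 members were ranked by Pearson's r over the 48 livers. The first 7 were the elongase gene Elovl6 (0.910), the acyl-CoA synthetase gene Acsl5 (0.895), the acetyl-CoA synthetase gene Acss2 (0.852), the reductase gene Cyb5r3 (0.834), Pnpla3 (0.820), the isocitrate dehydrogenase gene Idh1 (0.819) and Dlat (0.816), which encodes a subunit of pyruvate dehydrogenase. Over all ranked genes the median r was 0.01, and the 5th and 95th percentiles were -0.31 and 0.40. Of those 7, Elovl6, Acsl5, Acss2, Pnpla3 and Idh1 were already in the pathway lists.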

How the data were processed

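Whole-liver RNA was extracted with Trizol and sequenced from libraries without strand information, per the labels' protocols. The submitters' processing notes name STAR 2.6.1, HTSeq 0.6.1, DESeq2 2 and the builds GRCm38 and mm10. The authors deposited, per the file headers, whole-number counts per gene and library, FPKM and a normalised signal; each library's signal was found by check to equal its counts over a single factor. The 11 tables were joined by gene identifier into 29221 genes by 48 libraries (0 of 1341082 repeated counts differed, 0 columns were left without a sample). Deposited log2 fold changes and p-values were not used. Groups came from the sample titles. The labels name separate mice. 1 animal number in the low fat labelled-knockout females is written differently in 2 places, and that library was kept.

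CPM used TMM factors over the 48 libraries (edgeR 4.0.16, R 4.3.3). Each comparison was fitted to its own groups with filterByExpr and edgeR's quasi-likelihood F test, Benjamini-Hochberg adjusted over all genes tested. A gene is called, and written as rising or falling, where the adjusted p is under 0.05. SEs are the log2 fold change over the root of F, and 95% intervals are normal intervals from the SE. Deviations are log2(CPM + 0.5) minus the group mean, with 100000 permutations within groups per correlation. Code was tested on simulated data. Named genes are the 10 members, up to 4 called genes per pathway list and comparison by size, the 8 most like genes (1 is not reported here), and Pparg. Members and lists were chosen with earlier results of these data known. Alternatives were DESeq2 1.42.0 size factors or its Wald test, other count filters, all groups in 1 fit, the replicate block and the omission of each library.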

Additional observations from a re-analysis of the deposited data

Results flagged for a closer look

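Of 100 sets of values checked (10 genes in 10 groups), 11 had 1 liver far above the rest of its group. The rule took the gap to the next liver over the range of the group. The sets share livers and the genes vary together, so the 11 cannot be set against a count expected by chance. In HF control males replicate 1 stood apart for Fasn (2178 CPM, the next 1217), Acaca (329, the next 226) and Acacb (364, the next 258), and replicate 4 for Srebf1 (638, the next 492). In HFCF control males replicate 1 stood apart for Srebf1 (769, the next 562), Mlxipl (479, the next 329) and Thrsp (423, the next 201). In HFCF labelled-knockout males replicate 6 had 657 CPM of Thrsp against 205 in the next. Among females the far values were Acaca in LF control replicate 2 (386, the next 193), Pklr in HF control replicate 1 (612, the next 429) and Slc25a1 in HFCF labelled-knockout replicate 1 (281, the next 219). Tests of differences between sexes or diets in the effects called 0 of the 10 genes.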

How the results depend on the processing

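Of the 23 calls on single members, 0 changed sign under any alternative. In 138 refits other than leaving out a library 127 kept the call and 11 lost it, and in 440 refits without 1 library 397 kept it and 43 lost it. The count of called members in HF males was 4, and 1 with all 10 groups in 1 fit. The DESeq2 Wald test gave 1 in place of 0 for HFCF against HF in labelled-knockout females, for HF against LF in controls and in labelled knockouts, for HFCF against LF in labelled knockouts, and for the male difference of labelled-knockout effects between diets. For HF against LF controls, 1 was called with no filter on low counts, with at least 10 counts in every library and with all 10 groups in 1 fit. For HFCF against LF in labelled knockouts, 1 was called with no filter and with all 10 groups. For HFCF against LF controls, 2 in place of 1 were called with DESeq2 size factors, the Wald test, no filter or at least 10 counts. With the size factors 2797 genes were called higher and 2380 lower in that comparison. Otherwise the shares of all genes called under these alternatives are not given here, so the counts have no background beside them.

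The shares of all genes called in the refits without 1 library are not given here, so the counts below have no background beside them. Without single libraries the counts ran from 2 to 5 for the labelled knockout in HF males. For HFCF against HF they ran from 2 to 5 in control males, 3 to 5 in labelled-knockout males, 1 to 5 in control females and 0 to 2 in labelled-knockout females. For HFCF against LF they ran from 1 to 4 in controls (4 without LF control replicate 2) and 0 to 1 in labelled knockouts, and for HF against LF averaged over genotypes from 1 to 2. They ran from 0 to 2 for the male difference between diets and 0 to 3 for the sex difference in the diet response of controls.

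Replicate numbers did not pair the samples: the median correlation of same-numbered deviations ran from -0.0621 to 0.135 over 13 comparisons, and in none did every pair exceed 0.1. With the replicate block the count became 0 for HFCF against HF in control females and 1 for HF against LF averaged over genotypes. The other counts stayed within 1.5 times, and no share of all genes is given for these refits. The calls lost with the replicate block were Acaca and Me1 in control females on HFCF against HF (adjusted p = 0.0699 each), Acaca in labelled-knockout males on HFCF against HF (0.0525) and Acaca in HF against LF averaged over genotypes (0.0523), by edgeR. With all 10 groups in 1 fit, Thrsp in control males (0.0792) and Mlxipl in labelled-knockout males (0.0683) on HFCF against HF were also lost, the latter also with at least 10 counts in every library (0.0673).

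DESeq2 size factors moved a log2 value of a member by at most 0.0404. The lowest count of a member in any library was 1259.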

Other observations

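Further genes of the pathway lists, chosen after their values were seen, varied between livers of a group with the mean of the members. Insig1, a target and retention partner of SREBP, had r = 0.729 (place 34 of 10347 genes), and the desaturase gene Scd1 had r = 0.691 (place 53). The pentose phosphate gene Tkt had r = 0.770 (place 18). The other SREBP-processing genes had r = 0.399 for Scap, 0.380 for Srebf2, 0.360 for Insig2, 0.117 for Mbtps2, 0.026 for Fbxw7 and -0.083 for Mbtps1, and the ChREBP partner genes Mlx and Mlxip had 0.315 and -0.083. These are descriptions over the same 48 livers.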
